A study of Mus musculus with 24 samples.

Results

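Transcripts of the nucleus accumbens were compared between 3 libraries of stressed male Dnmt3a2lox/2lox mice that received AAV-Cre (Cre males) and 3 libraries of stressed male mice of the same genotype that received AAV-GFP (GFP males). These 6 libraries are all of the male floxed ones among the 24 libraries of the series, and all genes that passed a filter on low counts were tested. All the mice of this comparison, controls included, were of the C57BL/6J background, carried Dnmt3a alleles flanked by loxP sites, and were stressed. AAV-GFP, an adeno-associated virus that expresses green fluorescent protein, served as the control for AAV-Cre, whose recombinase removes the flanked part of the gene. The length of the stress, the promoter of the virus, the age of the mice and the delay from infection to dissection are not stated in the labels. Each library was a pool of mRNA from 4 mice cut out with bilateral 14 gauge punches, and the protocol names dorsal striatum beside nucleus accumbens. The pools are described as independent biological replicates, so n counts pools. The female floxed libraries (3 with AAV-Cre, 3 with AAV-GFP, both stressed) and the 12 wild-type libraries are used below only to place the male values. The wild-type libraries were of control males, stressed males, control females and stressed females, with 3 libraries per group. Their total counts were lower, at 7116123 to 12145551, against 28132563 to 59829070 in the floxed libraries.

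Dnmt3a is a DNA methyltransferase that places new methyl groups on cytosines, mostly in CpG dinucleotides and, in neurons, also in other contexts. Methyl marks in promoters and gene bodies are read by methyl-CpG binding proteins and are linked to gene silencing, while Tet enzymes oxidise the mark and start its removal. The nucleus accumbens is the ventral part of the striatum and is made up mostly of GABAergic medium spiny neurons, which respond to dopamine through D1 or D2 receptors, with a few interneuron types and glia. Neurons that use the vesicular glutamate transporter Slc17a7 have their cell bodies in the cortex and related structures, not in the striatum.

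Total counts were 33687785 to 59829070 in the Cre males and 29429777 to 38830969 in the GFP males, and mitochondrial genes took 7.06% to 7.83% and 7.67% to 8.86% of them. Values per library are CPM, read counts scaled to library size with TMM factors, and fold changes are log2 values of Cre minus GFP with their standard error (SE) from edgeR. A gene was called at a Benjamini-Hochberg adjusted p below 0.05 in edgeR's quasi-likelihood test. Library 2 of the Cre males stands apart by high choroid plexus, meningeal and oligodendrocyte transcripts and by low medium spiny neuron transcripts. All 3 Cre male libraries stand apart by transcripts of cortical excitatory neurons. These values come first, since they touch most of the results.

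The targeted gene was measured as a check of the labels. Dnmt3a (ENSMUSG00000020661) stood at 143, 137 and 138 CPM in Cre males 1 to 3 and at 182, 164 and 171 CPM in GFP males 1 to 3. All 3 Cre libraries lay below all 3 GFP libraries. The log2 fold change was -0.30 (SE 0.0562, adjusted p = 0.0149, n = 3 pools per group by edgeR), a level 1.24-fold higher with GFP. The gene's count also holds reads from exons outside the flanked part and from cells that the virus did not reach, so it does not measure the share of cells with a deletion. The call was lost without GFP male 1 or without GFP male 3. In the females the same contrast gave -0.12 (unadjusted p = 0.0474, adjusted p = 0.829), and the difference between males and females did not pass (adjusted p = 0.269). Of the other methyltransferases, Dnmt1, which copies methylation after replication, gave 0.04 (adjusted p = 0.741) and Dnmt3b gave -0.13 (adjusted p = 0.737).

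Markers of cortical excitatory neurons were higher in the Cre males, and Slc17a7 set these males apart from every other group. Slc17a7 (ENSMUSG00000070570), the vesicular glutamate transporter of cortical neurons, reached 428, 408 and 168 CPM in Cre males 1 to 3, against 1.29, 2.76 and 15.3 CPM in GFP males 1 to 3. The lowest Cre male lay above the highest library of any other group, a wild-type control female with 108 CPM. The log2 fold change was 5.62 (SE 1.31, adjusted p = 0.0431). In females Slc17a7 was at 3.41, 1.496 and 36.0 CPM with Cre and at 20.8, 5.19 and 2.15 CPM with GFP, and the groups overlapped. The plot of Slc17a7 in each library shows these values for all 8 groups.

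**Figure D1:**
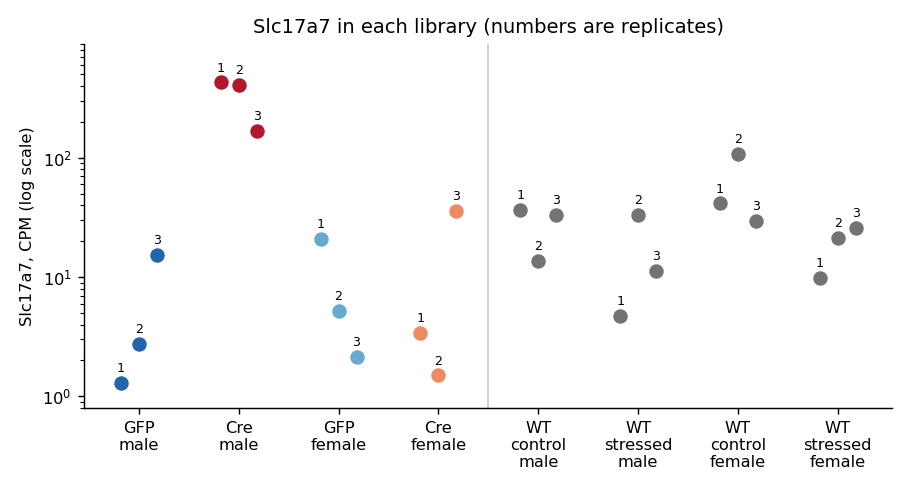
Slc17a7 in CPM on a log axis, with a point for each library (numbers are replicates) and the 8 groups along the x axis. The 3 Cre male libraries lie between 168 and 428 CPM, and every other library is at 108 CPM or less.

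The promoter of Slc17a7 is printed because the gene leads the cortical markers, and that of Adcyap1 because this gene has the clearest difference between males and females. Each is the RefSeq window of 250 bases before to 50 after the first listed start, in build GRCm38.p6, 5′ to 3′ on the gene's strand, with CpG dinucleotides in capitals. The window of Slc17a7 is chr7:45163671-45163970 (plus strand, 13 CpG). The window of Adcyap1 is chr17:93198767-93199066 (plus strand, 7 CpG, 1 of 2 listed starts). The median over the 27025 genes in the table was 7 CpG, and 94.2% of the windows held at least 1. Methylation was not measured in these libraries.
Slc17a7: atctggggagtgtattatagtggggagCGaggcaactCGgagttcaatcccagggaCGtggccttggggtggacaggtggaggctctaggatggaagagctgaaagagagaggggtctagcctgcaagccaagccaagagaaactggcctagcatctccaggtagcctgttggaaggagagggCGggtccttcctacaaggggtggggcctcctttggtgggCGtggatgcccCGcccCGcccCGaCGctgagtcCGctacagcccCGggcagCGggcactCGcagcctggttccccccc
Adcyap1: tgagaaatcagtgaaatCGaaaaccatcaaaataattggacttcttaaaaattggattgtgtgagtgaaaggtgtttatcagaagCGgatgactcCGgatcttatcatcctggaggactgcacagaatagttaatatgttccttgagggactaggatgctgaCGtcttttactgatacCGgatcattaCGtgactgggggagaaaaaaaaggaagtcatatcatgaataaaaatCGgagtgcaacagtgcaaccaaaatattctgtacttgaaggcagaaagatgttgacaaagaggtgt

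In the list of 12 cortical excitatory markers, 11 were called higher in Cre males and none lower, beside a background of 3.68% of all 17597 genes called higher and 1.28% called lower. The list's median log2 fold change was 4.18, against 0.0046 over all genes tested and 0.19 for the same list in females. Tbr1, a transcription factor of cortical projection neurons, was at 42.3, 48.0 and 20.02 CPM with Cre and 1.05, 1.41 and 2.27 CPM with GFP (log2 4.51, SE 0.82, adjusted p = 0.0186). No Cre library overlapped a GFP library for this gene. Neurod1 had 84, 205 and 24 reads with Cre and 0, 1 and 2 reads with GFP, too few for a fold change. Cux2, which is also expressed outside the cortex, was the member not called (log2 0.10, adjusted p = 0.701). The summed level of the list was 600.0, 610 and 269 CPM in Cre males 1 to 3, 45.3 to 61.3 CPM in GFP males and 48.6 to 94.3 CPM in the 6 female libraries. Calls in this list were not stable to single libraries: 4 to 11 members were called in the fits that left out 1 male library, and Emx1, Neurod1 and Bhlhe22 were called in all 6 of them. Slc17a7 itself lost its call in 5 of these 6 fits and kept it without Cre male 3. The list of 8 upper cortical layer genes moved little, with 1 called higher, none lower and a median of 0.12. Its summed level was 280, 307 and 275 CPM in Cre males 1 to 3 and 270.5, 302 and 249 CPM in GFP males 1 to 3, with overlap. Of 8 cortical interneuron genes, 2 were called higher and none lower (median 0.65).

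Across the transcriptome, 872 of 17597 genes were called (4.96%), 647 higher (3.68%) and 225 lower (1.28%) in Cre males. Of these, 870 had no overlap between the 3 Cre and the 3 GFP libraries, where 14.7% of all genes were free of overlap with Cre higher and 14.7% with Cre lower. An unadjusted p below 0.05 was reached by 4369 genes. The number of calls rested on single libraries: it was 1303 without Cre male 3 and 318, 341, 246, 93 and 165 without Cre male 1, Cre male 2, GFP male 1, GFP male 2 and GFP male 3. DESeq2 called 1753 genes. In the females edgeR called 0 genes (0% of those tested), while 1049 had an unadjusted p below 0.05. DESeq2 called 33 in the females. The test of the difference between the sexes called 2 genes (0.0114%), with 3082 at an unadjusted p below 0.05.

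**Figure D2:**
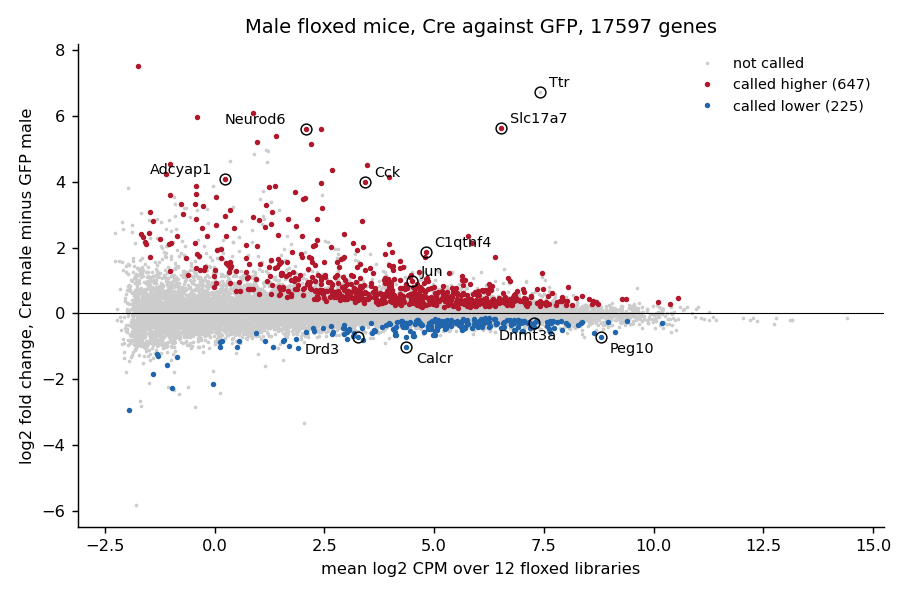
Log2 fold change of Cre minus GFP in males (y axis) against mean log2 CPM over the 12 floxed libraries (x axis), with a point for each of 17597 genes. Called genes are in colour (647 higher in red, 225 lower in blue), and labelled genes are circled. The called genes with fold changes above 4 on the log2 scale include Slc17a7, Neurod6 and Adcyap1, while Ttr is as far up without a call.

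Several measurements bear on how far the calls move with the cortical excitatory markers. A cortical score was computed for each library as the mean centred log2 CPM of the 12 markers, and 85.2% of its variance over the 12 floxed libraries lay between the 4 groups. The score was 2.87, 3.16 and 1.89 in Cre males 1 to 3 and -1.95, -1.33 and -0.41 in GFP males, with no overlap. With the score as a covariate edgeR called 0 genes, with 634 at an unadjusted p below 0.05, and with Slc17a7 alone it called 0, with 1618 at an unadjusted p below 0.05. Of the 872 called genes, 845 had the same sign with the score in the fit. An effect of Cre and a difference in dissection cannot be told apart from these fits.

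Cre male 3 had a lower summed level of the 12 cortical excitatory markers (269 CPM) than Cre males 1 and 2 (600.0 and 610 CPM) and gives a second view. For each called gene, the change in Cre male 3 from the GFP mean was expressed as a percentage of the mean change in Cre males 1 and 2. The 11 called cortical markers ranged from 22.4% to 59.2% by this share, with a list median of 42.3%. Cre male 3 was set apart by its low level of these same markers, so their low shares are built in. Among the 647 higher genes, 335 had a share below 60%, 107 had 60% to 80%, and 205 had 80% or more, with a median of 58.6%. Among the 225 lower genes, 30, 64 and 131 fell into these classes, and the median was 86.3%. Cre male 3 was the lowest Cre library in 436 of the 647 higher genes (67.4%), against 32.0% of all genes tested. The bounds and the measure were chosen after the values were seen, and no test was made of them.

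**Figure D3:**
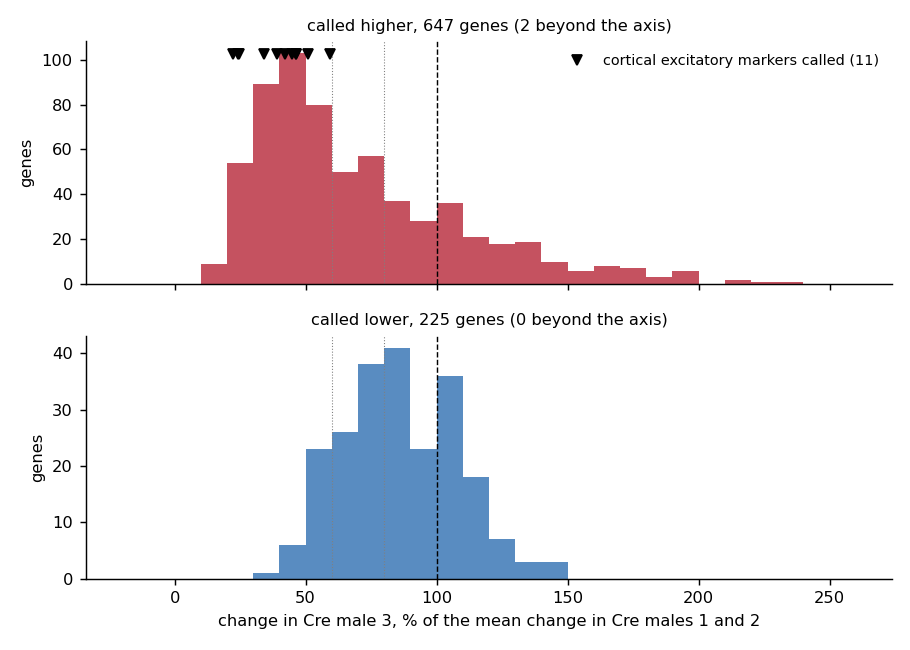
Number of called genes (y axis) by the change in Cre male 3 as a percentage of the mean change in Cre males 1 and 2 (x axis, dashed line at equal change, dotted lines at 60% and 80%). The higher genes (top, 647) pile up between 20% and 60%, where the 11 called cortical markers lie (triangles), and the lower genes (bottom, 225) lie mostly between 50% and 120%.

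The slope on the score was also fitted in libraries outside the male comparison. The score is made of the 12 markers, so a slope of these genes on it is built in. Over the 12 wild-type libraries, within groups, the slope on the score was called for 1 gene of 15249 (0.00656%), Slc17a7. Over these and the 6 female floxed libraries it was called for 9 genes of 15864 (0.0567%), all rising with the score, among them Slc17a7, Tbr1, Neurod2, Neurod6, Slc30a3, Prss12, Ccn3 and Cck. Of the 9, 6 were members of the score, and without the members 3 were left, Prss12, Ccn3 and Cck, and 0 over the wild-type libraries alone. All 9 were among the genes called higher in Cre males. With the members left out, the slope over the 18 libraries was positive at an unadjusted p below 0.05 in 30 of the 602 higher genes that could be fitted (4.98%), and in 87 of 15503 genes tested in the males (0.561%). Over the wild-type libraries alone it was 35 of 594 (5.89%) and 144 of 14902 (0.966%). The range of the score is narrow in those libraries, so a gene with no slope there was not shown to be free of cortical RNA.

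Other cell types were checked with their own marker lists. Of 13 tested choroid plexus and ependymal genes none was called, with a median of 1.96. Ttr, the transthyretin made by the choroid plexus, was at 125, 1848 and 23.8 CPM in Cre males 1 to 3 and 0.952, 1.48 and 15.3 CPM in GFP males (log2 6.73, SE 1.66, adjusted p = 0.0509). The summed list was at 376, 3325 and 239 CPM with Cre against 183 to 217 CPM with GFP, so Cre male 2 was far above the others. Without Cre male 3, 6 of these genes were called. In bulk tissue, fewer cells of a type and less RNA per cell cannot be told apart.

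Shared medium spiny neuron genes were lower in Cre male 2. The 20 genes summed to 13288, 8089 and 13990 CPM in Cre males 1 to 3 and to 14462, 15477 and 15633 CPM in GFP males, so every Cre library was below every GFP library. None of the 20 was called, and all 20 had a negative fold change, with a median of -0.33. Drd1, the D1 dopamine receptor, was at 242, 138 and 266 CPM with Cre and 278, 302 and 298 CPM with GFP (log2 -0.44, adjusted p = 0.21). Drd2, the D2 dopamine receptor, was at 174, 93.2 and 197 CPM with Cre and 193, 196 and 216 CPM with GFP (log2 -0.38, adjusted p = 0.326). For both receptors library 2 was the lowest, and for Drd2 the groups overlapped. Oligodendrocyte, astrocyte, microglia and endothelial lists held no called gene, with medians of 0.25, 0.13, 0.26 and -0.04. The 12 oligodendrocyte genes, all with a positive fold change, summed to 3705.6, 6231.5 and 4530.6 CPM in Cre males 1 to 3. In GFP males they summed to 3817.4 to 4338.7 CPM. The 12 meningeal fibroblast genes, none called, summed to 139, 361 and 118 CPM with Cre and 101 to 127 CPM with GFP. Cre male 2 was the highest male library in both lists. Gfap, the filament protein of reactive astrocytes, was at 299, 152 and 257 CPM with Cre and 101, 98.6 and 131 CPM with GFP and did not pass (log2 1.09, adjusted p = 0.11).

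The called genes with the largest rise at a mean log2 CPM of at least 1 included Slc17a7, Neurod6, Slc30a3, Gm11549, Neurod2, Tbr1, Nrn1, Ccn3, Cck, Prss12, Bmp3, Npr3, Gm23935 and Nr4a2. Of these genes, Slc30a3 loads zinc into glutamatergic vesicles, Nrn1 is a neuritogenic surface protein, and Cck is a neuropeptide of cortical neurons. Cck was at 39.8, 41.1 and 20.3 CPM with Cre and 1.36, 2.19 and 2.73 CPM with GFP (log2 3.99, SE 0.54, adjusted p = 0.00813). Nr4a2, a nuclear receptor of deep cortical layers and the claustrum, was at 13.6, 13.0 and 5.33 CPM with Cre and 0.782, 0.909 and 1.17 CPM with GFP (log2 3.47, SE 0.54, adjusted p = 0.0108). In both genes Cre male 3 was the lowest Cre library and still far above the GFP libraries. Gm23935 was the exception in this set, with 2.50, 6.65 and 11.0 CPM in Cre males 1 to 3 against 0.918, 0.303 and 0.535 CPM with GFP, and a log2 fold change of 2.67 in females (unadjusted p = 0.00337). The call of Cck was kept in all 6 fits without 1 male library, and those of Slc17a7, Neurod6, Neurod2, Tbr1, Nrn1 and Npr3 in 1, without Cre male 3. Npr3, a clearance receptor for natriuretic peptides, rested on Cre male 2 with 18.8 CPM, against 5.61 and 1.96 CPM in the others.

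Genes called lower had smaller fold changes. The 15 largest falls at that expression level were in Mcmdc2, Gm3828, Calcr, Rasgrp4, Col28a1, ENSMUSG00000091089, Rgsl1, Bend7, C230014O12Rik, Myh6, Drd3, Adamts6, Peg10, Slco5a1 and Adam12, between -1.06 and -0.68. None of these 15 calls was kept in all 6 fits without 1 male library. Calcr, the calcitonin receptor, was at 11.6, 11.3 and 16.6 CPM with Cre and 28.9, 27.3 and 23.2 CPM with GFP (log2 -1.01, SE 0.23, adjusted p = 0.0368). Drd3, the D3 dopamine receptor, which is concentrated in the ventral striatum, was at 7.06, 5.32 and 8.56 CPM with Cre and 10.4, 12.7 and 11.5 CPM with GFP (log2 -0.73, SE 0.17, adjusted p = 0.033). The groups did not overlap for either gene, but each call was lost in 5 of the 6 fits without 1 male library and kept without Cre male 3. In females Drd3 gave -0.00086 (unadjusted p = 0.996), and the difference between the sexes did not pass (adjusted p = 0.181). Drd3 moved in the same direction as the summed medium spiny neuron genes, and their part in its change was not tested.

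Isl1, a transcription factor of D1 medium spiny and cholinergic neurons, was at 20.95, 21.7 and 23.9 CPM with Cre and 38.7, 34.8 and 31.3 CPM with GFP. Its 3 Cre libraries lay close together, unlike Drd1 and Drd2, and library 2 was not the lowest. The log2 fold change was -0.65 (SE 0.11, adjusted p = 0.0115), lost without GFP male 2. In the list of 9 D1 genes Isl1 was called lower and Eya1 higher, beside 1.28% and 3.68% of all genes. Of the 9, 8 had a negative fold change, with a median of -0.38. Eya1 kept its call in 1 of the 6 fits without 1 male library, the fit without Cre male 3. The fall of Ntrk3, the receptor for neurotrophin 3, was small and even: 62.0, 61.7 and 61.6 CPM with Cre against 79.1, 77.0 and 76.1 CPM with GFP (log2 -0.33, SE 0.055, adjusted p = 0.0115), lost without GFP male 2.

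**Figure D4:**
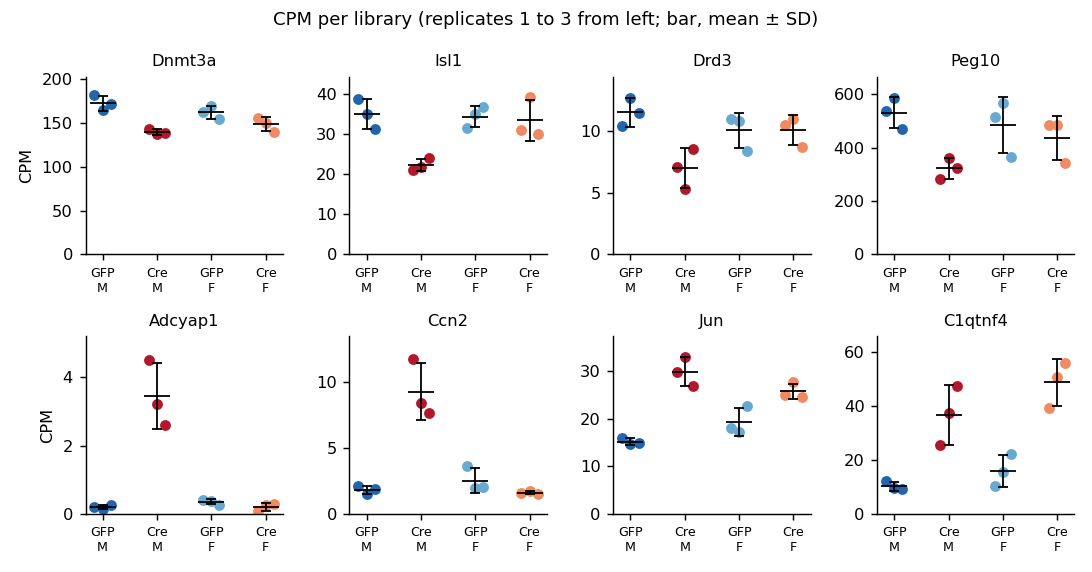
CPM per library for 8 genes in the 4 floxed groups (M male, F female), with replicates 1 to 3 from left to right and bars for the mean and SD (n = 3 pools). Dnmt3a, Isl1, Drd3 and Peg10 are lower in the Cre males, Adcyap1 and Ccn2 are higher in the Cre males, and Jun and C1qtnf4 are higher with Cre in both sexes.

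Adcyap1 and Ccn2 were the 2 genes for which the Cre effect differed between males and females. Adcyap1 (ENSMUSG00000024256) encodes the neuropeptide PACAP, and it was at 4.51, 3.22 and 2.61 CPM in Cre males 1 to 3 and 0.204, 0.135 and 0.255 CPM in GFP males. In females it was at 0.0758, 0.249 and 0.286 CPM with Cre and 0.400, 0.384 and 0.265 CPM with GFP. The male groups were far apart and the female groups overlapped. The log2 fold change was 4.07 in males (SE 0.38, adjusted p = 0.00192) and -0.79 in females (unadjusted p = 0.0962), a difference of 4.86 (SE 0.58, adjusted p = 0.0246).

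Ccn2 (ENSMUSG00000019997), also known as connective tissue growth factor, is a matricellular protein and a marker of the deepest cortical layer. It was at 11.8, 8.402 and 7.71 CPM in Cre males and 2.11, 1.48 and 1.86 CPM in GFP males (log2 2.35, SE 0.25, adjusted p = 0.00236). In females it was at 1.54, 1.75 and 1.504 CPM with Cre and 3.60, 1.95 and 2.03 CPM with GFP (log2 -0.67, unadjusted p = 0.0225). The difference was 3.02 (SE 0.36, adjusted p = 0.0246). Both genes were called in the male comparison in all 6 fits without 1 male library. The test of the difference between the sexes called 0 genes with limma-voom, without Cre male 1, without each GFP male in turn, without Cre female 2 and without GFP female 3, and 617 genes with DESeq2. The share in Cre male 3 was 65.8% for Adcyap1 and 71.3% for Ccn2. It was 22.4% to 59.2% in the called cortical excitatory markers, and the called deep cortical layer genes, Ccn2 included, had a median of 59.2%. What lies behind these shares was not tested. With the cortical score in the fit Adcyap1 and Ccn2 gave 2.54 and 1.78 (unadjusted p = 0.0109 and 0.0127, adjusted p = 1.00 for both). Ccn2 is in the list of 12 deep cortical layer genes, of which 6 were called higher and 1 lower (median 0.80), with 1 higher without GFP male 2. Over all genes 3.68% were called higher and 1.28% lower. Of the 6 higher ones, 4 were Ccn2, Cplx3, Nr4a2 and Ntng2. The summed level of the deep layer list went the other way. It was 379, 310.5 and 375 CPM in Cre males 1 to 3 and 405, 406 and 416 CPM in GFP males 1 to 3. Every Cre library was below every GFP library, so the list did not rise as a whole.

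Among 23 immediate early genes, which neurons induce within minutes of activity, 5 were called higher and none lower, with a median of 0.26. The share called higher over all genes was 3.68%. The count was 1 without GFP male 2, 2 without GFP male 1 or 3, 3 without Cre male 1 or 2, 4 without Cre male 3, and 3 after a correction for transcript GC content. Jun, a subunit of the AP-1 factor, was at 29.7, 33.0 and 26.9 CPM with Cre and 15.9, 14.7 and 14.9 CPM with GFP (log2 0.98, SE 0.10, adjusted p = 0.00236). The groups did not overlap, and the call was kept in all 6 fits without 1 male library. In females Jun gave 0.41 (unadjusted p = 0.00198, adjusted p = 0.509). Junb, another AP-1 subunit, was at 22.1, 22.5 and 30.3 CPM with Cre and 16.2, 12.3 and 14.4 CPM with GFP (log2 0.80, adjusted p = 0.0494), with 0.94 in females (unadjusted p = 0.000655). Jund rose by 0.44 (adjusted p = 0.0215). After that correction Junb gave 0.56 (adjusted p = 0.141) and Jund 0.055 (adjusted p = 0.718). Junb and Jund were highest in Cre male 3, unlike the cortical markers. Nr4a2 and Dusp6, a phosphatase of MAP kinases, were the other called members, and Fos did not pass (log2 0.31, adjusted p = 0.695).

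Hspa1a and Hspa1b, which encode the stress-inducible chaperone HSP70, were the 2 called genes of 16 in the heat shock list (median 0.07). Over all genes, 3.68% were called higher. Hspa1b was at 2.98, 3.76 and 1.70 CPM with Cre and 0.374, 0.303 and 0.280 CPM with GFP (log2 3.15, SE 0.33, adjusted p = 0.00236). Hspa1a was at 1.11, 2.00 and 0.967 CPM with Cre and 0.238, 0.303 and 0.255 CPM with GFP (log2 2.37, SE 0.36, adjusted p = 0.00813). No Cre library overlapped a GFP library, and both calls were kept in all 6 fits without 1 male library. The genes are near-identical copies, so how the reads were split between them is uncertain. Their RefSeq promoter windows (build GRCm38.p6) are printed to show how alike they are: they match at 296 of 300 positions and differ at 4. The windows are chr17:34972107-34972406 and chr17:34959189-34959488, both on the minus strand, printed 5′ to 3′ on that strand with CpG in capitals (15 and 16 CpG).
Hspa1a: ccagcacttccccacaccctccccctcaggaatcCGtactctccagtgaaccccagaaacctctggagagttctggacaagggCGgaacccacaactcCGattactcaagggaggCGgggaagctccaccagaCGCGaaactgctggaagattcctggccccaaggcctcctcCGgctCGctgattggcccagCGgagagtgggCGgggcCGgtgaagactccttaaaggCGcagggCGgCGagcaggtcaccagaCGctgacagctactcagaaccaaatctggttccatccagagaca
Hspa1b: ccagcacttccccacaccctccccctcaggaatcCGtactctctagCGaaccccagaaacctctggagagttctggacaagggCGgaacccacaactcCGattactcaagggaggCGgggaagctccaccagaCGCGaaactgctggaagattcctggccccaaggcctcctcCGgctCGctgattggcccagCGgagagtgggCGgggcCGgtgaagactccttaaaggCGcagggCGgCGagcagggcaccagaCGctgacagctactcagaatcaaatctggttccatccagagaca

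Neuropeptide genes were called in 6 of 22 tested, all higher, with a median of 0.40, beside 3.68% of all genes called higher. Without 1 male library, 3 (without GFP male 2) to 7 (without Cre male 3) were higher. Besides Adcyap1 and Cck the 6 called genes included Vip, Sst and Npy, peptides of interneurons, and Chgb, a granin of secretory granules. Vip, a peptide of cortical interneurons, was at 7.93, 7.96 and 3.28 CPM with Cre and 0.578, 0.875 and 0.816 CPM with GFP (log2 3.07, SE 0.47, adjusted p = 0.00923). Sst, which striatal and cortical interneurons express, was at 126, 132 and 143 CPM with Cre and 90.6, 94.4 and 90.1 CPM with GFP (log2 0.54, SE 0.0685, adjusted p = 0.00388). Npy, often made by the same interneurons, was at 46.8, 41.2 and 45.5 CPM with Cre and 33.5, 34.1 and 31.0 CPM with GFP (log2 0.44, adjusted p = 0.0226), a call kept without Cre male 2 or 3 and lost in the other 4 fits. Vip was lowest in Cre male 3 of the Cre libraries, whereas Sst was highest there. Neuropeptide receptors were called in 6 of 27, all higher (median 0.10), among them Sstr1, Sstr3 and Sstr4, receptors of somatostatin, and Oxtr, the oxytocin receptor. Sstr4 was also lost after the GC correction (0.24, adjusted p = 0.209). All 6 receptor calls were absent in the fits without Cre male 1, without Cre male 2 and without each GFP male in turn.

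Growth factor, Wnt and guidance genes gave 13 calls upward and 3 downward (81.2% upward), where 74.2% of all calls were upward. The lists held 80 tested genes, and over all genes 3.68% were called higher and 1.28% lower. Bdnf, the brain-derived neurotrophic factor that cortical axons supply to the striatum, was at 5.25, 6.48 and 2.81 CPM with Cre and 0.612, 0.606 and 0.816 CPM with GFP (log2 2.83, SE 0.32, adjusted p = 0.00272). In the neurotrophic list 2 of 22 were called higher (Bdnf and Nrg3) and Ntrk3 lower, with a median of 0.23, and Nrg3 kept its call in 1 of the 6 fits without 1 male library. Of 26 tested Wnt pathway genes, 4 were called higher (Wnt7b, Frzb, Wnt9a and Wnt4) and none lower, with a median of 0.29. Without 1 male library 3 to 5 were called, and Wnt4 was also lost after the GC correction (1.20, adjusted p = 0.0565). Wnt7b, a secreted Wnt ligand, was at 37.4, 41.2 and 26.0 CPM with Cre and 13.4, 12.3 and 13.5 CPM with GFP (log2 1.42, SE 0.14, adjusted p = 0.00213). With Cre males 1 and 2 both left out, Wnt7b gave 1.00 and Rasl10a, a small GTPase of the Ras family named after its values were seen, gave 1.86. That fit calls both (adjusted p = 0.031 and 0.0404), but its Cre male arm is 1 library, assumed to vary like the other groups. Among 32 matrix and axon guidance genes, 7 were called higher and 2 lower (median 0.20), with 3 to 9 higher and 0 to 2 lower without 1 male library. The lower ones were the guidance receptors Robo1 (-0.53, adjusted p = 0.0122) and Dcc (-0.43, adjusted p = 0.0243), both named after their values were seen. The higher ones included Ccn3, Ccn2, Ntng2 and Lingo1.

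In the vesicle release list 7 of 28 were higher and none lower (median 0.24), beside 3.68% of all genes called higher and 1.28% lower. Stx1a, a syntaxin of the release complex, was at 93.2, 86.0 and 57.1 CPM with Cre and 38.8, 39.7 and 38.6 CPM with GFP (log2 1.01, SE 0.15, adjusted p = 0.00806). Syn1, a vesicle phosphoprotein, was at 305, 317 and 254 CPM with Cre and 202, 212 and 201 CPM with GFP (log2 0.51, adjusted p = 0.0141), lost without each GFP male. The groups did not overlap for either gene, and Cre male 3 was the lowest Cre library in both. The count in this list was 13 without Cre male 3 and 1 to 3 without each other male library. Of 31 glutamate receptor and postsynaptic genes, Grm2 (log2 1.56) and Dlgap1 (0.75) were called higher, and Grik2 (-0.46) and Grm7 (-0.29) lower, with a median of -0.02. Of these Grm2 kept its call in all 6 fits without 1 male library, Dlgap1 and Grik2 in 1 and Grm7 in 2, and no gene of the list was called lower in 4 of the 6. Potassium channels gave 2 of 36 higher (Kcnj9 and Kcnf1), and GABA genes 1 of 21 (Gabbr2, a GABA-B receptor subunit). Both counts are near the 3.68% of all genes called higher. Without 1 male library the potassium channel list held 0 to 6 calls, with the 6 in the fit without Cre male 3. Gabbr2 kept its call in 1 of those fits and lost it after the GC correction (0.62, adjusted p = 0.0503).

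Genes of the methylation machinery and of families known to depend on it (imprinted genes, clustered protocadherins, germline genes) gave 5 calls of 65 tested, all lower, beside 1.28% of all genes called lower. Of the 5, 1 was Dnmt3a, the targeted gene, whose fall the design aimed at. None of the 5 calls was kept in all 6 fits without 1 male library. Of 19 tested genes that write, read or remove methylation, Dnmt3a and Tet2 were called, both lower, with a median of -0.07. Tet2, which oxidises methylcytosine, was at 69.5, 68.6 and 69.1 CPM with Cre and 83.6, 84.9 and 81.9 CPM with GFP (log2 -0.27, SE 0.0538, adjusted p = 0.0185), a call lost in 5 of the 6 fits without 1 male library and kept without Cre male 3. Gadd45b, which takes part in demethylation, was at 6.75, 5.86 and 7.18 CPM with Cre and 4.21, 4.68 and 4.56 CPM with GFP and did not pass (log2 0.55, adjusted p = 0.093). Imprinted genes, which are expressed from 1 parental allele, were called in 2 of 22, both lower, with a median of -0.04. Peg10 was at 282, 362 and 325 CPM with Cre and 539, 585 and 472 CPM with GFP (log2 -0.72, SE 0.18, adjusted p = 0.0471), and this call was lost in each of those 6 fits and after the GC correction (-0.69, adjusted p = 0.0571). Zdbf2 was at 101, 106 and 101 CPM with Cre and 152, 161 and 133 CPM with GFP (log2 -0.53, SE 0.10, adjusted p = 0.0157), lost without Cre male 1, GFP male 1 or GFP male 2. The shares in Cre male 3 were 98.8% for Peg10 and 106% for Zdbf2. None of 12 tested clustered protocadherins was called, though all 12 had a negative fold change (median -0.29), and 1 of 12 germline genes was called, Sycp2, lower. Sycp2 kept this call in 1 of the 6 fits, without Cre male 3, and lost it after the GC correction (-0.50, adjusted p = 0.0827).

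The female libraries played no part in the share, and the classes can be set side by side there, as a description with no test between them. Of the 205 higher genes with a share of 80% or more, 100 were also higher in the Cre females at an unadjusted p below 0.05 (48.8%). Among the 335 with a share below 60% there were 3 (0.896%), and over all genes tested 3.89% were higher at that p. The medians in females were 0.21 and -0.07 for these classes. The class below 60% held the 11 called cortical excitatory markers among its 335 genes, and the class of 80% or more had Cre male 3 as the highest Cre library in 90 of 205. Both follow in part from how the share was made. Over all 647 higher genes, 118 were higher in females at that p, and of the 225 lower genes 4 were lower, against 2.07% of all genes: Dnmt3a, Cntnap2, Cbln4 and 6820431F20Rik.

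**Figure D5:**
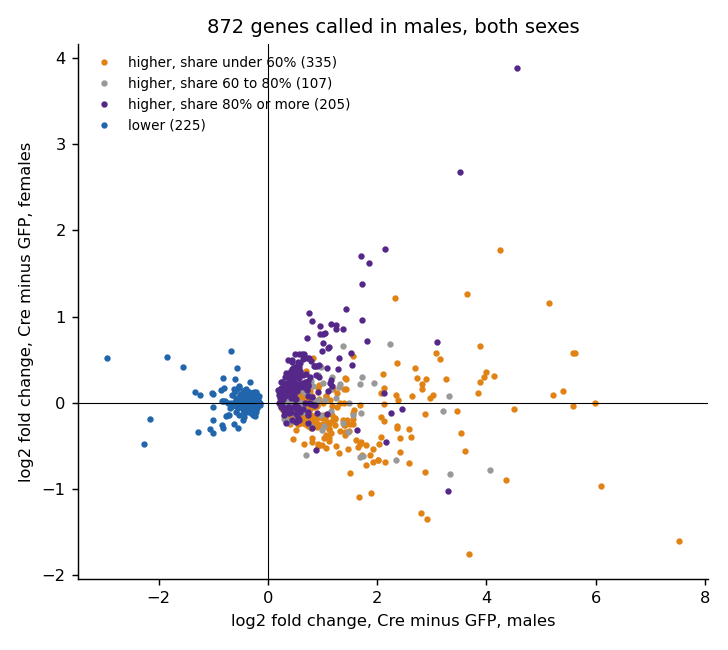
Log2 fold change of Cre minus GFP in females (y axis) against males (x axis) for the 872 genes called in males, coloured by direction and, for the higher genes, by the change in Cre male 3 as a share of that in Cre males 1 and 2. Of the 205 genes with a share of 80% or more, 162 lie above 0 in females, against 113 of the 335 with a share below 60%.

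C1qtnf4, a secreted protein of the C1q family, was at 25.3, 37.3 and 47.4 CPM in Cre males and 11.96, 9.42 and 9.13 CPM in GFP males (log2 1.85, SE 0.30, adjusted p = 0.0135). In females it was at 39.2, 50.9 and 56.1 CPM with Cre and 10.2, 15.5 and 22.0 CPM with GFP (1.62, unadjusted p = 0.000281). Neither sex had overlapping groups. Rprml, a relative of the cell cycle regulator reprimo, was at 20.5, 19.6 and 20.9 CPM in Cre males and 10.6, 10.3 and 9.94 CPM in GFP males (log2 0.98, SE 0.12, adjusted p = 0.00324), with 0.60 in females (unadjusted p = 0.00024). Zfp703, a zinc finger corepressor, was at 20.3, 21.2 and 18.7 CPM with Cre and 8.67, 9.29 and 10.6 CPM with GFP (log2 1.08, SE 0.10, adjusted p = 0.00192), with 0.40 in females (unadjusted p = 0.00232). These 3 genes were named after their values were seen, as were Junb, Chgb and the genes named for their values in females or in the fits without 1 library. The call of C1qtnf4 in males was kept in 3 of the 6 fits without 1 male library, and those of Rprml and Zfp703 in all 6. In females C1qtnf4, Rprml and Zfp703 did not pass (adjusted p = 0.448, 0.448 and 0.543 by edgeR). With the cortical score in the fit C1qtnf4, Rprml and Zfp703 gave 2.49, 1.03 and 0.76 in males (unadjusted p = 0.00484, 0.00399 and 0.00794, adjusted p = 1.00 for each).

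Transcript composition moved with this group. The 118 genes higher in both sexes had a median transcript GC content of 59.9% and a median exon length of 2572 bases, against 54.5% and 4290 bases in the other 529 higher genes and 49.7% over all genes. Among genes above 60% GC, 130 of 721 were called higher (18.03%) and none lower, with a median of 0.25 in males and 0.12 in females. Below 40% GC, 18 of 1037 were called higher and 23 lower, with a median of -0.07. With a correction for GC content chosen after seeing the data, 687 genes were called, 454 higher and 233 lower, of which 577 were shared. Of the 118 genes, 65 were still called in males (55.1%), with C1qtnf4 at 1.36 (adjusted p = 0.0167), Rprml at 0.69 (adjusted p = 0.00905) and Zfp703 at 0.88 (adjusted p = 0.00715). Of the 335 genes with a share below 60%, 256 were still called (76.4%). The part of library composition in the rise of GC-rich genes was not tested.

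A group of 75 genes was called in the fit of all libraries and in each of the 6 fits without 1 male library, 70 higher and 5 lower. By the share in Cre male 3, 41 of the 70 were below 60%, 19 at 60% to 80% and 10 at 80% or more. They held 3 of the 12 cortical excitatory markers, and 13 of the 70 were also higher in females at an unadjusted p below 0.05. All 75 were called after the GC correction, and none with the cortical score as a covariate. The 10 higher ones with a share of 80% or more were Zfp703, Rprml, 1110008P14Rik, Sst, Arhgap15, Csf2ra, Psmb5, Nol3, Lgi4 and H2afj, of which all but Arhgap15 were also higher in females at that p. The 5 lower ones were Nsun7, Unc13c, Amy1, Rps6ka5 and Akap17b, with fold changes of -0.56 to -0.32. Csf2ra, the alpha chain of the receptor for the cytokine GM-CSF, was at 24.6, 26.0 and 26.4 CPM with Cre and 18.998, 16.2 and 17.2 CPM with GFP (log2 0.55, SE 0.0716, adjusted p = 0.00439). Psmb5, a catalytic subunit of the proteasome, was at 39.2, 38.6 and 40.5 CPM with Cre and 30.4, 30.1 and 30.8 CPM with GFP (log2 0.37, SE 0.0551, adjusted p = 0.00773). For both genes the 3 Cre libraries lay within a narrow range above the GFP libraries.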

How the data were processed

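RNA was sequenced from nucleus accumbens punches. The authors deposited raw read counts per Ensembl gene for 24 libraries in 8 groups of 3. The counts were made with Bowtie2 2.1.0, TopHat2 2.0.9 and HTSeq 0.6.0 on mouse build mm9 (NCBIM37), per the submitters' processing notes, and whether strand was used is not given in the sources used here. Reads of genes that overlap on opposite strands may therefore be mixed, which touches 264 of the 872 called genes. Of 37991 genes, 5053 had no symbol in GENCODE M21, used here for names, lengths and GC content, and they held 0.736% to 0.798% of the counts.

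Genes were filtered with filterByExpr over the 12 floxed libraries, which left 17597. They were scaled with TMM and fitted with 4 group means in edgeR 4.0.16 (robust quasi-likelihood, R 4.3.3), and Cre was compared with GFP in males with Benjamini-Hochberg adjustment over all genes. DESeq2 1.42.0, limma-voom (limma 3.58.1), other scaling, no filter, the male libraries alone, a replicate block, cortical covariates and leaving out each library were alternatives. The GC correction, the slope over 18 libraries, the slopes without the score's own members, the share in Cre male 3 and leaving out both Cre males 1 and 2 were added after seeing the data. In simulated counts for this comparison (17457 genes), 163 of 200 changed genes were recovered with 10 false calls among 17257 unchanged genes. By fold, 40 of 40 genes were recovered at 4, 38 of 40 at 2, 25 of 40 at 1.5, 25 of 40 at 0.667 and 35 of 40 at 0.5. The changed genes had a mean CPM of at least 2, and each gene was drawn independently. Shifts shared by many genes of a library, as in the cortical score, were not simulated, so these rates may not hold for the real counts.

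The members and the 43 gene lists (835 entries, 20 of them not in the table) were chosen with earlier results of these data known. Named genes were the 15 called genes per direction that changed most, if their groups did not overlap and their mean log2 CPM reached 1, the genes called for the difference between the sexes, the targeted gene with a few fixed markers, and up to 4 members of smallest p in each list. A further part of the rule, genes also called with the cortical score as a covariate, named none. An item that the rule named is not reported here. Promoter windows are from RefSeq (GRCm38.p6), a build other than that of the counts. A comparison of promoter CpG content over called genes is void, since 70.5% of the tested genes had a window, below the minimum of 80%.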

Additional observations from a re-analysis of the deposited data

Results flagged for a closer look

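Adcyap1 had opposite signs in males and females, with a male minus female difference in log2 fold change of 4.86 (adjusted p = 0.0246, edgeR). The female value of -0.79 had an unadjusted p of 0.0962 (edgeR), and the female groups overlapped at low levels. Ccn2 was the other gene for which the test of the difference passed, with a difference of 3.02 (adjusted p = 0.0246, edgeR). Ptpn5, a striatum-enriched tyrosine phosphatase, had no overlap between groups in either sex and moved in opposite directions. It was at 531, 367 and 574 CPM in Cre males and 648, 622 and 681 CPM in GFP males, and at 655, 615 and 674 CPM in Cre females and 556, 597 and 555 CPM in GFP females. The difference of -0.60 did not pass (adjusted p = 0.163, edgeR).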

How the results depend on the processing

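Libraries decided much of the count of calls. In the fits that left out 1 library, calls in males numbered 93 to 1303, with 79 to 970 higher and 14 to 333 lower, and calls for the difference between the sexes 0 to 500. DESeq2 gave 1753 calls in males, 1134 higher and 619 lower, and 617 for the difference. For the difference, limma-voom gave 0, the table without a filter 43 and the GC correction 12. The 6 male libraries alone gave 551 calls, 107 of them lower. Leaving out both Cre males 1 and 2 gave 2 calls, 2 higher and 0 lower, and 0 for the difference. The share of calls that were higher was 74.2%, against 64.7% with DESeq2, 85.2% without Cre male 1, 87.4% without GFP male 1 and 84.9% without GFP male 2. The slope on the cortical score was called for 9 genes over 18 libraries, against 1 over the wild-type libraries. Without the score's own members it was called for 3 and 0 genes. RLE factors changed no call of the 83 called named genes, and GC correction ended 11 of them.

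With the replicate number as a block, 191 genes were called, 152 higher and 39 lower, and 0 for the difference, with 183 shared with the fit without it. Deviations of same-numbered male libraries correlated at -0.10, 0.08 and 0.18, and not every library correlated best with its own number, so the numbers were not taken as pairs.

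The cortical score as a covariate gave 0 calls, 0 higher and 0 lower, over 12 libraries and over the 6 male libraries, as did Slc17a7, and 0 for the difference. The score holds Slc17a7, Slc30a3, Tbr1, Neurod6, Neurod2, Neurod1, Fezf2 and Bhlhe22, so a loss of their change with it as covariate is built in. The cause of each other change was not tested. Over 12 libraries the sign turned, by log2 value, in Slc17a7 (-1.30), Neurod6 (-1.21), Neurod2 (-0.89), Tbr1 (-0.36), Prss12 (-0.36), Bmp3 (-0.026), ENSMUSG00000091089 (0.085) and Slco5a1 (0.0048). Over the 6 male libraries it turned in Slc17a7 (-0.20), Slc30a3 (-0.31), Ccn3 (-0.35), Npr3 (-2.12), Calcr (0.20), Rasgrp4 (0.014), ENSMUSG00000091089 (0.78), Bend7 (0.32), Adamts6 (0.41), Neurod1 (-0.49), Fezf2 (-0.085), Bhlhe22 (-1.03), Isl1 (0.0024), Eya1 (-0.0070), Grik3 (-0.075), Zbtb16 (-0.1), Grik2 (0.077), Oxtr (-0.41), Sstr4 (-0.0049), Kcnj9 (-0.35), Kcnf1 (-0.032), Nrg3 (-0.031), Wnt9a (-0.49), Wnt4 (-0.15), Drd1 (0.30), Drd2 (0.36) and Fos (-0.56). With Slc17a7 as the covariate it turned in Neurod6 (-0.12) and Neurod2 (-0.023).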

Other observations

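Further gene lists were checked in the males, where 4.96% of all genes were called, 3.68% higher and 1.28% lower. Lists of this size would hold few calls at that share. None of 45 nuclear respiratory chain genes, 12 mitochondrially encoded ones, 45 ribosomal protein genes, 19 unfolded protein response genes or 30 histone-modifying enzymes was called, with medians of 0.02, -0.15, -0.10, 0.02 and -0.07. All 12 mitochondrially encoded genes had a negative fold change. None of 21 interferon and MHC genes was called, with a median of 0.40 in males and -0.18 in females. In the oligodendrocyte precursor list 2 of 9 were called higher, Olig1 (log2 0.65) and C1ql1 (0.72), with a median of 0.13. The list held 0 calls without GFP male 2 or GFP male 3, and C1ql1 gave 0.37 (adjusted p = 0.161, edgeR) after the GC correction. Phlda3, a target of p53, was the 1 called gene of 15 in the DNA damage list (log2 0.80), and Zbtb16, a glucocorticoid-induced factor, the 1 of 18 in the glucocorticoid list (0.77). Among 22 monoamine receptors, Adra1d (3.02), Htr5a (0.63) and Adrb1 (0.42) were called higher and Drd3 lower, with a median of 0.33. After the GC correction Phlda3 gave 0.55 (adjusted p = 0.0956, edgeR) and Adrb1 0.28 (adjusted p = 0.115, edgeR). Adra1d kept its call in all 6 fits without 1 male library, Htr5a in 4, Phlda3 in 2, and Adrb1, Zbtb16 and Drd3 in 1.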
